A study of Mus musculus with 6 samples.

Results

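*Amh*, the gene of anti-Müllerian hormone, and *Amhr2*, the gene of its dedicated type II receptor, were followed in granulosa cells (GCs) of mice given cyclophosphamide (CTX). They are 2 of the 54532 genes in the deposited expression table, found there by gene name and not by their values. The study compared 3 PBS samples with 3 CTX samples by RNA-seq, to ask which transcripts accompany GC apoptosis. All animals were 3-week-old ICR females primed with 5 IU of PMSG, a gonadotropin that drives follicles to grow. After 22 h they received 1 intraperitoneal injection of PBS or of CTX, an alkylating chemotherapy drug, at 120 mg/kg. GCs were taken 6 h after that injection, and each sample combined the GCs of 3 mice, so differences between single mice were not measured. Since PMSG was given to both groups, untreated ovaries are not represented.

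AMH is a secreted dimer of the TGF-β superfamily. In the fetal testis it removes the Müllerian ducts, and in the ovary it is made by GCs of growing follicles, most strongly in preantral and small antral follicles, and declines as follicles approach ovulation. It binds AMHR2, which recruits a BMP type I receptor and leads to phosphorylation of SMAD1, SMAD5 and SMAD9. In GCs it is known to dampen the response to FSH, including aromatase and the LH receptor, and its level in blood is used clinically as a sign of the ovarian reserve, also after chemotherapy.

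*Amh* (ENSMUSG00000035262) lies on the plus strand of chromosome 10, from 80805243 to 80807648 (GRCm38). GENCODE M21 gives it 1 transcript with 5 exons and an exonic length of 1670 bases. *Amhr2* (ENSMUSG00000023047) lies on the plus strand of chromosome 15, from 102445367 to 102454633, with 4 protein-coding transcripts of up to 11 exons and an exonic length of 2005 bases. No other annotated gene overlaps either of them, but *Sf3a2*, a splicing factor gene on the same strand, ends 318 bases before *Amh*.

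The promoter of *Amhr2* is shown because NR5A1 (SF-1), an orphan nuclear receptor of steroid-producing and gonadal cells, is known to act on *Amh* and *Amhr2*, and the transcripts of this factor were measured in the same samples. The sequence is RefSeq's on GRCm38.p6, chr15:102445117-102445416, plus strand, 250 bases before to 50 bases after the start site. The capitals mark AAGGTCA, a half-site of the kind NR5A receptors recognise.
*Amhr2* promoter: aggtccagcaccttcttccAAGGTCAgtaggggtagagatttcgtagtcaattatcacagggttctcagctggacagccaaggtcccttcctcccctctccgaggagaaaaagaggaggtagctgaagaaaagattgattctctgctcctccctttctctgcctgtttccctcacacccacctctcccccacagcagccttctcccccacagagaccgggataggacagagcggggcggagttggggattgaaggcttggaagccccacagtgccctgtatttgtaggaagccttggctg

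The half-site was searched on both strands and occurred once, starting 231 bases before the start site. Of 32851 RefSeq promoter windows of the same length, 1550 (4.72%) held it on either strand. Binding was not measured, so the match is a description of these letters only.

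Expression is given as FPKM, a read count set relative to gene length and, by the authors, to library depth. Between 16005869 and 18455011 reads per sample fell on genes, so the *Amh* and *Amhr2* values rest on 1381 to 5294 reads each. CTX replicate 2 stood apart from all other samples. In a principal component analysis of the genes tested, PC1 held 46.8% of the variance, with CTX replicate 2 at 74.7 and the other samples between -26.6 and 13.2. The GC markers *Foxl2*, *Fshr*, *Inha*, *Cyp19a1*, *Hsd17b1* and *Fst* were present in every sample, with summed levels of 10562 to 11875 FPKM in PBS and 9747 to 10223 FPKM in CTX samples. Most of this sum is *Inha*. Of the 6 markers 5, all but *Fst*, were below the PBS range in every CTX sample, beside 14.1% of all genes tested. For *Inha* the gap was small, with at most 9180 FPKM in CTX and at least 9205 FPKM in PBS samples. In CTX replicate 2, *Cyp19a1* was 9.16-fold, *Foxl2* 2.44-fold and *Fshr* 2.14-fold below the PBS mean.

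*Amh* was higher in the CTX samples, but by an amount that differed greatly between them. Its level was 48.4, 48.8 and 51.1 FPKM in PBS replicates 1, 2 and 3. In CTX replicates 1, 2 and 3 it was 54.3, 179 and 85.5 FPKM. The groups thus did not overlap, with CTX replicate 1 just above the PBS range, CTX replicate 3 clearly above it and CTX replicate 2 far above it. In such bulk samples, a change in the share of cells of a type and a change in RNA per cell cannot be told apart. Such a separation with CTX on the upper side was seen in 15.0% of the 14463 genes tested. The mean went from 49.4 ± 1.43 FPKM in PBS to 106 ± 64.7 FPKM in CTX (SD, n = 3 each), 2.15 times the PBS mean. Without CTX replicate 2 it was 1.41 times the PBS mean.

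The log2 difference of *Amh*, CTX minus PBS, was 0.93 on the log2(FPKM + 0.1) scale, with a 95% interval of -0.04 to 1.89. Its adjusted p was 0.269 by limma over all genes tested, so it did not pass the threshold (adjusted p under 0.05 and a change of over 2-fold). By comparison, 0.961% of the genes tested were called, 0.802% as higher and 0.159% as lower after CTX. The two-sided exact permutation test gave p = 0.10, the smallest that 3 samples against 3 can give. Left without CTX replicate 2, the log2 difference was 0.46 (adjusted p = 0.235 by limma).

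The spread of *Amh* among the CTX samples was far beyond counting error. The exact Poisson 95% interval of its level was 51.7 to 56.9 FPKM in CTX replicate 1, 82.3 to 88.9 FPKM in CTX replicate 3 and 174 to 184 FPKM in CTX replicate 2. These intervals cover counting error only. The SD of its log2 level was 0.04 among PBS samples and 0.87 among CTX samples, where the medians over all genes tested were 0.10 and 0.18. Few genes were as variable after CTX, since 92.9% of the genes tested had a smaller SD among the CTX samples.

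*Amhr2* had the same order among the CTX samples as *Amh*, over a narrower range. It was present at 75.7, 73.6 and 79.9 FPKM in PBS replicates 1, 2 and 3, and at 79.3, 142 and 85.5 FPKM in CTX replicates 1, 2 and 3. CTX replicate 1 lay inside the PBS range, CTX replicate 3 just above it, and CTX replicate 2 at 1.86 times the PBS mean. The groups therefore overlapped. Means were 76.4 ± 3.19 FPKM in PBS and 102 ± 34.8 FPKM in CTX (SD, n = 3 each). The log2 difference was 0.37, with a 95% interval of -0.16 to 0.90 (adjusted p = 0.379 by limma, two-sided exact permutation p = 0.20). Without CTX replicate 2 the log2 difference was 0.11 (adjusted p = 0.446 by limma).

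**Figure D1:**
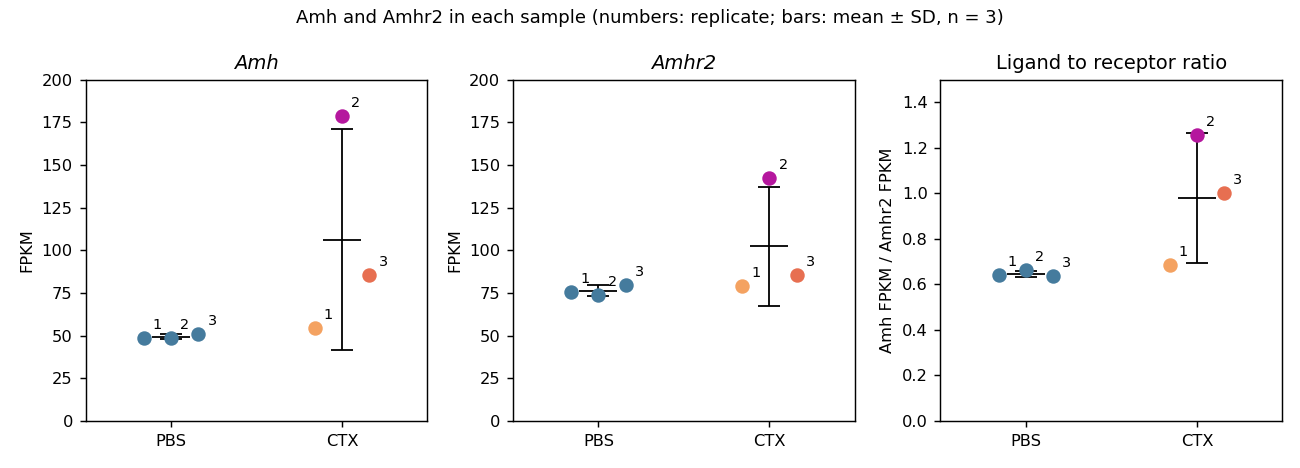
FPKM of *Amh* and *Amhr2* and their ratio (y axes) in the PBS and CTX samples (x axes), with each point a sample, its replicate number beside it, and bars for the mean ± SD (n = 3). PBS samples sit close together, whereas *Amh* spreads from 54.3 to 179 FPKM over the CTX samples and *Amhr2* from 79.3 to 142 FPKM.

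A scaling factor shared by all genes of a sample cancels in the ratio of ligand to receptor. *Amh* FPKM divided by *Amhr2* FPKM was 0.639, 0.663 and 0.639 in PBS replicates 1, 2 and 3, and 0.684, 1.25 and 1.00 in CTX replicates 1, 2 and 3. Receptor transcripts outnumbered ligand transcripts per length in all PBS samples and in CTX replicate 1, were level with them in CTX replicate 3, and were fewer in CTX replicate 2. The CTX ratios exceeded the PBS ratios without overlap (two-sided exact permutation p = 0.10, the smallest possible). The log2 ratio was higher by 0.55 in CTX samples, or by 0.35 without CTX replicate 2.

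Among transcripts of the TGF-β superfamily, *Amh* ranked below the inhibin subunits and above all other listed ligands. In PBS samples, *Inha*, the inhibin α subunit, was at 9606 ± 689 FPKM, *Inhbb* at 1623 ± 37.7 FPKM and *Inhba* at 826 ± 74.2 FPKM, the β subunits of inhibins and activins. *Amh* came next at 49.4 FPKM, and the oocyte factor *Gdf9* followed at 18.9 ± 6.29 FPKM (SD, n = 3 each). The ranges of these PBS levels did not overlap between neighbours, whereas those of *Gdf9* and the next ligand, *Tgfb3* (17.5 ± 1.02 FPKM), did. *Amh* held position 4 of 13 in every one of the 6 samples.

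The gap between *Amh* and the inhibin β subunits was narrower in CTX samples. *Inhba* was 665, 211 and 487 FPKM in CTX replicates 1, 2 and 3, so in CTX replicate 2 *Amh* at 179 FPKM was close to it. *Inhbb* was 1069, 530 and 895 FPKM in the same samples. Neither passed the threshold, with log2 differences of -1.01 (adjusted p = 0.244) and -1.03 (adjusted p = 0.124) by limma. The list does not cover the whole superfamily, and *Gdf15*, for example, is not in it. Among the other listed ligands that were tested, *Bmp2* had the highest log2 difference (1.03, adjusted p = 0.250 by limma). It was at 5.60 to 6.49 FPKM in PBS samples and 8.88, 25.7 and 8.40 FPKM in CTX replicates 1, 2 and 3. *Bmp6*, at 2.83 to 3.04 FPKM in PBS, had the CTX order of *Amh*, with 2.53, 10.4 and 3.89 FPKM, and overlapped between the groups (adjusted p = 0.462 by limma). Of the 12 other listed ligands 10 were tested, and 0 were called by limma or by voom (limma's test on reads rebuilt from the FPKM values). Of these 10, 3 had an unadjusted p under 0.05, beside 19.6% of all genes tested, and the median log2 difference was 0.11.

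*Amhr2* was the most abundant of the 5 type II receptors listed, in every sample. *Bmpr2*, the type II receptor for BMPs, came next at 35.8 ± 3.56 FPKM in PBS samples. *Acvr2a* (3.50 ± 0.814 FPKM) and *Acvr2b* (2.49 ± 0.242 FPKM), the activin receptors, and *Tgfbr2* (1.99 ± 0.236 FPKM), the TGF-β receptor, were far lower. The PBS ranges of *Acvr2b* and *Tgfbr2* overlapped, and those of the other neighbours did not. Unlike *Amhr2*, *Bmpr2* stayed at 33.7 to 35.7 FPKM over the CTX samples, CTX replicate 2 included. *Tgfbr2* had the highest log2 difference of the 4 other type II receptors (0.29, adjusted p = 0.283 by limma) and *Acvr2b* the lowest (-0.11, adjusted p = 0.650 by limma). Of these 4, 0 were called by limma or voom, 0 had an unadjusted p under 0.05 (19.6% over all genes tested), and the median log2 difference was 0.05.

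**Figure D2:**
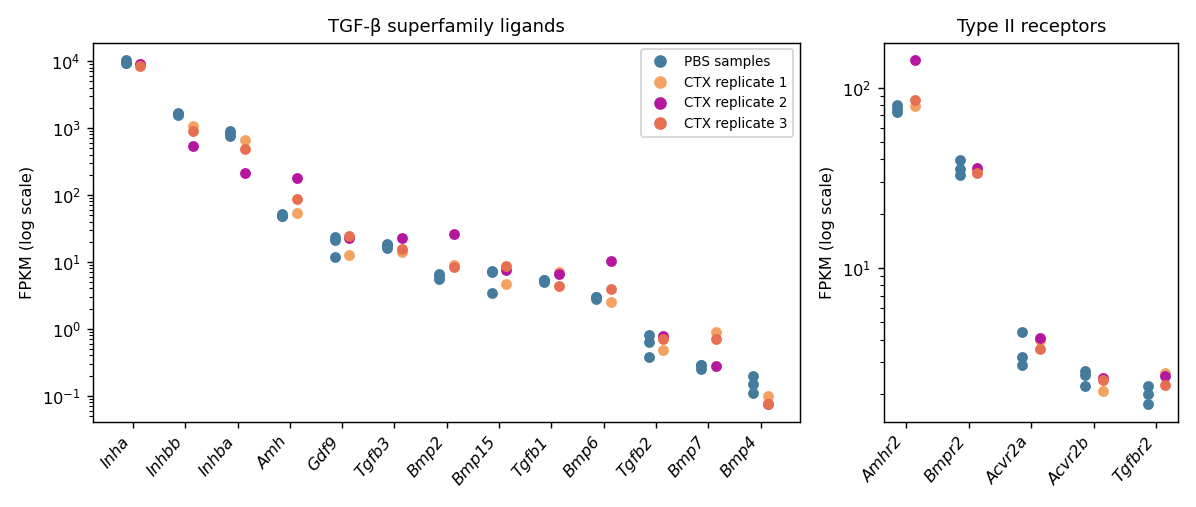
FPKM on a log axis for 13 TGF-β superfamily ligands (left) and 5 type II receptors (right), ordered by PBS mean, with 1 point per sample coloured by group and CTX replicate. *Amh* is ligand 4 and *Amhr2* receptor 1 in every sample.

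Transcripts of the type I receptors through which AMH acts had similar mean levels in both groups, as did *Smad1*, *Smad5* and *Smad4*. The type I receptors *Acvr1*, *Bmpr1a* and *Bmpr1b* were at 5.46 ± 0.369, 15.6 ± 0.573 and 30.9 ± 1.63 FPKM in PBS, against 5.29 ± 0.547, 15.9 ± 1.65 and 32.6 ± 7.82 FPKM in CTX samples (SD, n = 3 each). *Bmpr1b* was lowest in CTX replicate 1 and highest in CTX replicate 2, at 25.5 and 40.9 FPKM. The log2 differences of the 3 receptors were -0.05, 0.02 and 0.05, with the widest 95% interval, that of *Bmpr1b*, from -0.36 to 0.46. *Smad1* and *Smad5*, which the receptors phosphorylate, had log2 differences of 0.08 and 0.00, and *Smad4*, their common partner, 0.05.

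*Smad9*, *Smad6* and *Smad7* had higher means in CTX samples without passing the threshold. *Smad9*, the least abundant of the receptor-activated SMADs, was at 0.585, 0.386 and 0.403 FPKM after PBS and 0.915, 1.68 and 0.780 FPKM after CTX, a log2 difference of 1.08 (adjusted p = 0.181 by limma). Its PBS mean, 0.458 FPKM, was under the filter of 0.5 FPKM, which it passed only through its CTX levels. The inhibitory SMADs feed back on BMP and TGF-β signals. *Smad7* was 5.68 to 6.08 FPKM in PBS and 6.25, 22 and 10.2 FPKM in CTX replicates 1, 2 and 3, and *Smad6* was 2.67 to 3.31 FPKM in PBS and 2.96, 9.18 and 4.15 FPKM in CTX, where replicate 1 lay inside the PBS range. Among CTX samples both had the order of *Amh*, lowest in replicate 1 and highest in replicate 2. Their adjusted p by limma was 0.287 for *Smad7* and 0.353 for *Smad6*.

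The Id genes encode inhibitors of helix-loop-helix factors and are common targets of SMAD1, SMAD5 and SMAD9. *Id1* was at 15.3, 18.1 and 19.9 FPKM in PBS and at 23.7, 45.0 and 28.2 FPKM in CTX replicates 1, 2 and 3, a log2 difference of 0.81 (adjusted p = 0.163 by limma). *Id3* lay on the other side, at 148, 154 and 174 FPKM in PBS and 125, 122 and 117 FPKM in CTX, a log2 difference of -0.38 (adjusted p = 0.093 by limma). *Id2* overlapped between the groups, with its lowest level, 47.8 FPKM, in CTX replicate 2. The 3 targets thus took 3 different courses across the same samples.

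Of the 13 AMH signalling genes, 12 passed the filter on low values, and *Id4* did not. By limma and by voom 0 of the 12 were called, and 3 had an unadjusted p under 0.05 by limma, beside 19.6% of all genes tested. The CTX samples were above the PBS range in 3 of them and below it in 1, beside 15.0% and 14.1% of all genes tested. *Smad9*, which passed the filter only through its CTX levels, was among the 3 in both counts. The median log2 difference was 0.05, beside -0.01 over all genes tested. Without CTX replicate 2 it was 0.12, with 0 called.

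**Figure D3:**
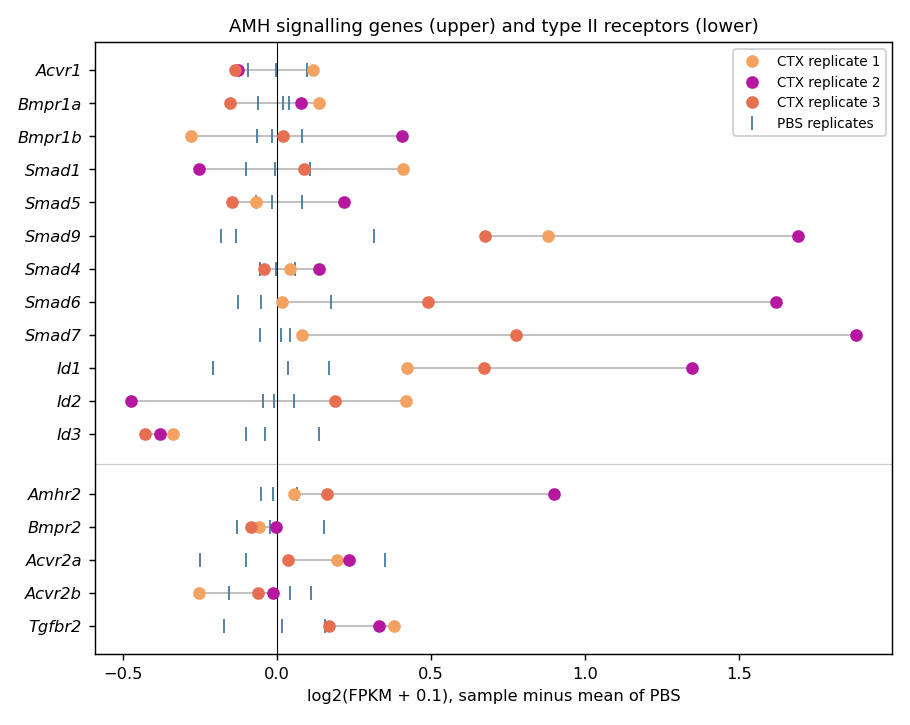
Log2(FPKM + 0.1) of each sample minus the PBS mean (x axis) for the tested AMH signalling genes and the 5 type II receptors (y axis), with a dot per CTX sample and a tick per PBS sample. *Smad6*, *Smad7*, *Id1* and *Amhr2* reach their highest values in CTX replicate 2, while the type I receptors and *Bmpr2* remain within 0.5 of the PBS mean.

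Cleavage by proprotein convertases makes AMH active. Transcripts of *Furin* (9.89 to 10.1 FPKM in PBS and 9.58 to 12.2 FPKM in CTX) and of *Pcsk6* and *Pcsk7* overlapped between the groups. *Pcsk5* was at 20.3 to 21.8 FPKM in PBS and 13.6 to 20.0 FPKM in CTX samples, a log2 difference of -0.42 (adjusted p = 0.203 by limma). *Pcsk6* had the highest log2 difference, 0.19 (adjusted p = 0.472 by limma). Of these 4 genes 0 were called by limma or by voom, 1 had an unadjusted p under 0.05 (19.6% over all genes tested), and the median was -0.02.

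Most genes of the FSH response in GCs had lower levels in CTX samples, opposite to *Amh*. *Fshr*, the FSH receptor, was at 92.2, 88.5 and 94.5 FPKM in PBS replicates 1, 2 and 3 and at 80.5, 42.8 and 69.9 FPKM in CTX replicates 1, 2 and 3. *Cyp19a1*, the aromatase that makes oestrogen, was at 60.0, 59.2 and 62.4 FPKM after PBS and 47.6, 6.61 and 32.5 FPKM after CTX. Both genes were below the PBS range in every CTX sample and lowest in CTX replicate 2, where *Amh* was highest. Their adjusted p by limma was 0.248 for *Fshr* and 0.291 for *Cyp19a1*.

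In the FSH response list, CTX replicate 2 departed most in *Lhcgr* and *Cyp11a1*. *Lhcgr*, the LH receptor that GCs acquire late in follicle growth, was at 112, 113 and 108 FPKM in PBS and at 129, 1.48 and 53.1 FPKM in CTX replicates 1, 2 and 3. *Cyp11a1*, which starts steroid synthesis, was at 544 to 564 FPKM in PBS and at 727, 14.4 and 486 FPKM in CTX replicates 1, 2 and 3. In CTX replicate 2, *Lhcgr* was 75.2-fold and *Cyp11a1* 38.6-fold below the PBS mean, while CTX replicate 1 was above all PBS samples for both. Whether the mice of CTX replicate 2 responded to PMSG as the others did was not tested, which limits what its *Amh* and *Amhr2* levels say about CTX. *Nppc*, the natriuretic peptide precursor that keeps oocytes in meiotic arrest, was at 166 to 195 FPKM in PBS and 144, 87.5 and 129 FPKM in CTX. Nearest to 0 was *Inha*, with a log2 difference of -0.11 (adjusted p = 0.748 by limma).

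Of the 10 FSH response genes all had a negative log2 difference, and in 8 the CTX samples were below the PBS range, as in 14.1% of all genes tested. By limma and by voom 0 of the 10 were called, and 5 had an unadjusted p under 0.05 by limma, beside 19.6% of all genes tested. Their median log2 difference was -0.81, or -0.34 without CTX replicate 2, beside medians of -0.01 and -0.01 over all genes tested. CTX replicate 2 was the lowest of the 6 samples in 8 of the 10, and in 28.2% of all genes tested. CTX replicate 3 lay between the other CTX samples in 9 of the 10, as it did for *Amh* and *Amhr2*, and in 51.4% of all genes tested.

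Transcription factors known to act on *Amh* or on GC identity were divided in direction. *Nr5a1* was at 75.4 to 80.6 FPKM in PBS samples and at 78.4, 28.1 and 55.0 FPKM in CTX replicates 1, 2 and 3, and *Gata4*, a zinc-finger activator of *Amh*, at 103 to 107 FPKM in PBS and 109, 52.3 and 75.3 FPKM in CTX. Transcripts of both were lowest in CTX replicate 2, where *Amh* and *Amhr2* were highest. Whether either factor acted on *Amh* or *Amhr2* in these samples was not tested. *Nr5a2*, the other NR5A gene listed, was more abundant, at 223 to 243 FPKM in PBS and 224, 162 and 181 FPKM in CTX (log2 difference -0.30, adjusted p = 0.262 by limma). *Foxl2*, which maintains ovarian identity, was lower in all CTX samples, at 145, 76.9 and 107 FPKM against 184 to 193 FPKM in PBS (log2 difference -0.82, adjusted p = 0.137 by limma).

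*Wt1*, a zinc-finger factor needed for gonad formation, went the other way, at 2.88, 3.06 and 3.05 FPKM in PBS and 3.39, 13.6 and 6.09 FPKM in CTX replicates 1, 2 and 3 (log2 difference 1.11, adjusted p = 0.255 by limma). *Zfpm2*, the FOG2 partner of GATA factors, was at 1.88 to 2.03 FPKM in PBS and 3.07, 7.20 and 3.54 FPKM in CTX. *Nr0b1* (DAX1), a repressor of NR5A1 activity, and *Esr2*, the oestrogen receptor of GCs, also peaked in CTX replicate 2, at 11.5 and 136 FPKM, against 3.20 to 3.82 and 52.8 to 54.8 FPKM in PBS. *Sox9*, which activates *Amh* in the testis, stayed at or below 1.27 FPKM in all samples. Of the 12 regulators 0 were called by limma or voom, 3 had an unadjusted p under 0.05 (19.6% over all genes tested), 4 had a positive and 8 a negative log2 difference, and the median was -0.22 (-0.16 without CTX replicate 2, with 0 called). Without CTX replicate 1, *Foxl2* was called (log2 difference -1.05, adjusted p = 0.035 by limma).

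**Figure D4:**
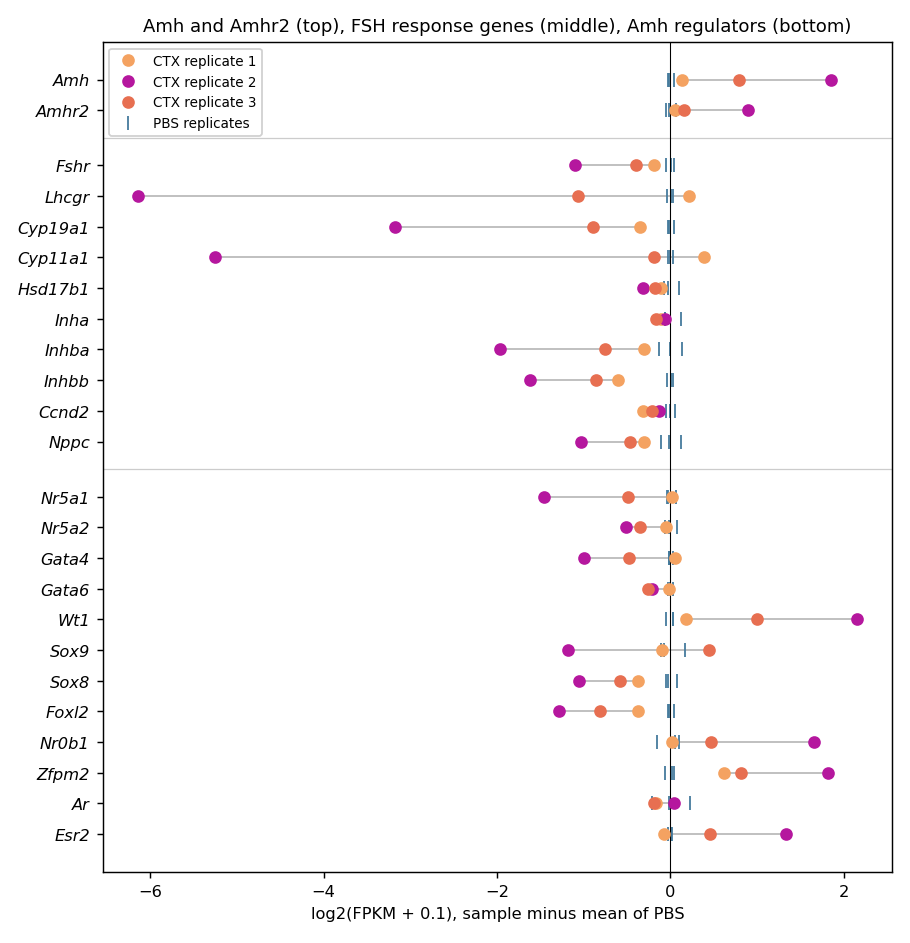
Log2(FPKM + 0.1) of each sample minus the PBS mean (x axis) for *Amh* and *Amhr2*, the 10 FSH response genes and the 12 *Amh* regulators (y axis), with a dot per CTX sample and a tick per PBS sample. *Amh*, *Amhr2*, *Wt1*, *Nr0b1*, *Zfpm2* and *Esr2* extend to the right in CTX replicate 2, and *Lhcgr*, *Cyp11a1*, *Cyp19a1*, *Inhba* and *Nr5a1* to the left.

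Set against all genes tested, *Amh* was among those that CTX replicate 2 shifted upward most. Its log2 level there exceeded the mean of CTX replicates 1 and 3 by 1.39, more than in 98.2% of the genes tested, and that of *Amhr2* by 0.79, more than in 94.9%. The remaining pair of CTX samples also differed, with *Amh* higher by 0.66 in CTX replicate 3 than in CTX replicate 1, a difference above that of 93.8% of genes. For *Amhr2* this difference was 0.11. By rank, *Amh* was gene 1068, 1017 and 1049 of those tested in the PBS samples and gene 997, 227 and 544 in CTX replicates 1, 2 and 3.

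**Figure D5:**
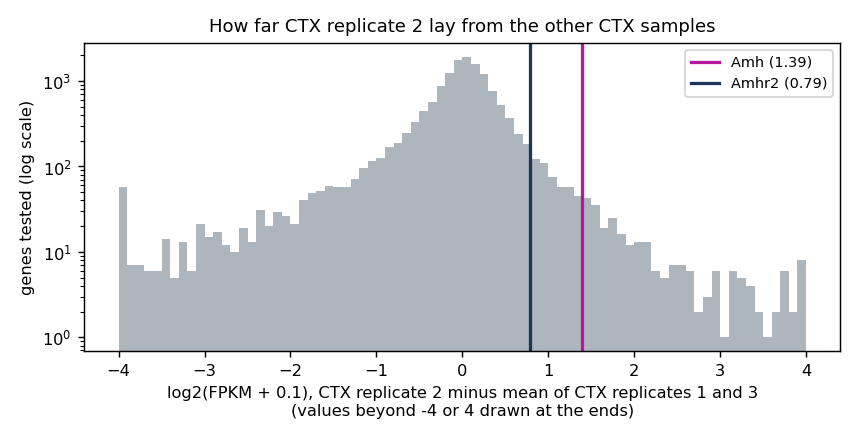
Number of genes tested (y axis, log scale) by the log2(FPKM + 0.1) of CTX replicate 2 minus the mean of CTX replicates 1 and 3 (x axis), with lines at *Amh* (1.39) and *Amhr2* (0.79). Both lie in the right-hand tail.

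Of the genes beside *Amh* and *Amhr2* on their chromosomes, the 3 that were tested had log2 differences from -0.17 to 0.30, and 0 of them were called by limma. *Sf3a2* was at 37.1 to 37.6 FPKM in PBS samples and at 37.0, 42.9 and 38.5 FPKM in CTX replicates 1, 2 and 3, a log2 difference of 0.08 (95% interval -0.10 to 0.25). *Jsrp1* lies on the opposite strand, with its 3′ end 847 bases beyond the 3′ end of *Amh*. It was at 5.56 to 7.09 FPKM in PBS and 5.13 to 5.78 FPKM in CTX. *Sp1*, a general transcription factor whose gene ends 8962 bases before *Amhr2*, was at 10.6 to 12.8 FPKM in PBS and 13.5 to 15.5 FPKM in CTX, highest in CTX replicate 1. *Gm26518*, a long non-coding RNA gene 892 bases beyond *Amhr2*, was too low to be tested, at 0.170 to 0.334 FPKM in PBS and 0.0506 to 0.224 FPKM in CTX.

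The patterns most like that of *Amh* over the 6 samples, among 8055 other genes with a mean of at least 5 FPKM, were those of *Mras*, *Wt1* and *C130074G19Rik* (Pearson r of 0.999 each on log2 levels). *Wt1* passed this limit, with a mean of 5.35 FPKM over the 6 samples, only through its CTX levels. Its PBS mean was 2.99 FPKM. *Mras*, a RAS-related GTPase gene, was at 57.1, 56.6 and 60.4 FPKM in PBS and 60.2, 123 and 79.2 FPKM in CTX replicates 1, 2 and 3. For *Amhr2* the most alike were *Itgb5*, an integrin subunit gene (r = 0.997), *Rwdd4a* (r = 0.996) and *Nop14* (r = 0.995). *Amhr2* itself was in place 257 among the genes most like *Amh* (r = 0.966). These values are descriptions over 6 samples, of which CTX replicate 2 lies far from the rest.

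Markers of other ovarian cells were also read in these samples. All 7 oocyte genes, among them *Zp3* of the egg coat, overlapped between the groups, with log2 differences from 0.10 (*Gdf9*) to 0.56 (*Zp1*) and summed levels of 32.6 to 68.4 FPKM in PBS and 45.3, 82.7 and 78.3 FPKM in CTX replicates 1, 2 and 3. Of the 3 theca genes, 1 had a negative and 2 a positive log2 difference. *Cyp17a1*, which makes androgens, was at 30.8 to 34.4 FPKM in PBS and 29.6, 1.25 and 12.4 FPKM in CTX. *Insl3* was at 0.270 to 0.396 FPKM in PBS and 0.354, 0.814 and 1.16 FPKM in CTX. It rested on 3, 4 and 4 reads in PBS and on 4, 9 and 13 reads in CTX replicates 1, 2 and 3. Its PBS mean, 0.339 FPKM, was under the 0.5 FPKM needed for testing, which it passed only through its CTX levels. *Ptch1* was at 3.14 to 4.21 FPKM in PBS and 4.11, 6.55 and 4.02 FPKM in CTX. Endothelial genes summed to 4.41 to 5.38 FPKM in PBS and 1.78 to 4.05 FPKM in CTX, and surface epithelium genes to 4.51 to 5.05 and 1.79 to 5.82 FPKM. Most of the endothelial sum was *Cdh5*, the only 1 of these 4 genes high enough to be tested. The 5 leukocyte genes summed to 3.45 to 4.73 FPKM in PBS and 4.86 to 10.7 FPKM in CTX. Most of this sum was *Cd68*, at 2.59 to 3.69 FPKM in PBS and 4.26, 8.97 and 3.91 FPKM in CTX replicates 1, 2 and 3. *Ptprc*, the pan-leukocyte marker, was at or under 0.0983 FPKM, and the T cell gene *Cd3e* was listed at 0 in PBS replicate 3. Of the 4 smooth muscle genes 2 were tested. *Acta2* was called by limma, beside 0.961% of all genes tested. It rose from 8.06 to 17.3 FPKM on average (log2 difference 1.08, adjusted p = 0.017 by limma). Without CTX replicate 2 its log2 difference was 0.95, which is under 2-fold. *Des*, the other gene tested, overlapped between the groups, at 0.419 to 0.872 FPKM in PBS and 0.838, 0.255 and 1.01 FPKM in CTX (log2 difference 0.05, adjusted p = 0.971 by limma). Except for these values, the part of other cells in the *Amh* and *Amhr2* levels was not tested.

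*Amh* is also known as a gene of cumulus cells, the GCs around the oocyte. Of 8 further genes that oocytes promote in cumulus cells, *Slc38a3*, an amino acid transporter gene, was the one that peaked in CTX replicate 2, at 52.0 FPKM against 22.2 to 24.3 FPKM in PBS samples and 20.9 and 30.8 FPKM in CTX replicates 1 and 3. The other 7 were negative in log2 difference, with *Ldha*, lactate dehydrogenase, at 307 to 343 FPKM in PBS and 191 to 216 FPKM in CTX (log2 difference -0.68, adjusted p = 0.019 by limma) and the glycolytic *Pfkp* at -0.47 (adjusted p = 0.022). Both differences were under 2-fold, so 0 of the 8 were called by limma or by voom, and 3 had an unadjusted p under 0.05, beside 19.6% of all genes tested. The most negative was *Fdps*, of cholesterol synthesis, at 4.19 to 4.34 FPKM in PBS and 3.62, 0.563 and 2.29 FPKM in CTX replicates 1, 2 and 3 (log2 difference -1.27, adjusted p = 0.295 by limma). The median of the 8 was -0.56.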

How the data were processed

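RNA-seq of 6 pooled mouse GC samples, 3 PBS and 3 CTX by their labels, was analysed from FPKM values per gene that the authors deposited. The submitters' processing notes list CASAVA 1.8, fastp, HISAT2 2.0.5, featureCounts 1.5.0-p3, DESeq2 1.20.0 and mm10, and strandedness is not given in the sources used here. Taking gene length into account, 100% of nonzero FPKM values came within 0.01 of a whole read. The authors' own group means, fold changes and p-values were not used.

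Groups were compared on the log2(FPKM + 0.1) scale by limma 3.58.1 (lmFit, eBayes with trend, R 4.3.3), tested on simulated data first, over the 14463 genes with a mean of at least 0.5 FPKM, with Benjamini-Hochberg adjustment over all of them. For genes of low level this scale makes a change look smaller than it is. The simulated data had the same spread in both groups and no outlying sample, unlike the CTX samples here. They therefore do not show how limma treats a sample like CTX replicate 2. Exact permutation tests over samples were two-sided. P-values set the group difference against the spread between these pools, a spread that limma moderates over all genes tested.

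The genes, lists and tests were chosen with earlier results of these data known. Besides *Amh* and *Amhr2*, genes were named if called, if at either end of their list by log2 difference, if needed to describe the pathway, if next to either gene, or if among the 3 most alike. *Ldha*, *Pfkp*, *Cyp11a1*, *Nppc*, *Zfpm2*, *Bmp6*, *Nr0b1*, *Nr5a2* and *Ptch1* were chosen after their values were seen. Other settings tried were a pseudocount of 1 or 0.01, every gene above 0, a mean of at least 5 FPKM, 3 scalings, a replicate block, arrayWeights, eBayes without trend, each sample left out, and voom on rebuilt reads.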

Additional observations from a re-analysis of the deposited data

How the results depend on the processing

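*Amh* and *Amhr2* stayed uncalled, and higher in CTX samples on average, under each of the 17 alternatives. The log2 difference of *Amh* ranged from 0.46 (without CTX replicate 2) to 1.32 (without CTX replicate 1) and that of *Amhr2* from 0.11 to 0.53 on leaving out the same samples. Over the other settings they were 0.80 to 0.93 and 0.18 to 0.37. Adjusted p by limma ranged from 0.0047 to 0.510 for *Amh*. The lowest came with arrayWeights, at a log2 difference of 0.80, which is under 2-fold and where CTX replicate 2 had a weight of 0.163 and CTX replicate 3 one of 16.6. The log2 ratio of *Amh* to *Amhr2* was 0.35 to 0.79 higher in CTX samples when each sample was left out and 0.54 to 0.55 otherwise. The number of genes called, 139, was 657 with arrayWeights and 50 with the replicate block, 125 with voom on rebuilt reads, 58 to 84 on leaving out a PBS sample or CTX replicate 3, 199 without CTX replicate 2 and 205 without CTX replicate 1. The number of *Amh* regulators called was then 0 to 1, and the AMH signalling and FSH response lists had 0 genes called throughout. The cause was not tested.

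With the replicate block the log2 differences were 0.93 for *Amh* (adjusted p = 0.300 by limma) and 0.37 for *Amhr2* (adjusted p = 0.400 by limma), and neither call changed. PBS and CTX samples that share a replicate number come from separate animals. Across genes, departures from each group's average correlated at 0.006 to 0.056 in same-number pairs. In the other pairs they correlated at -0.076 to 0.059, a range that includes the same-number values. Whether the number pairs samples cannot be decided this way. Such departures are not independent within a group of 3, and CTX replicate 2 lay far from the other CTX samples. No sample label separates mice within a pool, and 3 samples a group limit what exact tests can show. Depth does not limit *Amh* or *Amhr2*, each with at least 1381 reads in every sample.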
